A study of Mus musculus with 20 samples.

Results

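Plexins are the cell-surface receptors of the semaphorins. The table held 9 of its 16810 genes under plexin symbols, and all 9 members of the family (*Plxna1*, *Plxna2*, *Plxna3*, *Plxna4*, *Plxnb1*, *Plxnb2*, *Plxnb3*, *Plxnc1* and *Plxnd1*) are described here, chosen by symbol alone. They were followed in microglia sorted from the spinal cord of adult mice in 7 groups: non-injured (NI, n = 3), lateral hemisection (HS) at 72 h (n = 3), 1 week (n = 2) and 2 weeks (n = 3), and full transection (FT) at 72 h, 1 week and 2 weeks (n = 3 each). Every mouse, NI included, was a CX3CR1+/eGFP heterozygote, so 1 copy of the fractalkine receptor gene was replaced by the reporter in all groups, and lesions were made at thoracic level. Microglia were taken as the cells of high eGFP in flow cytometry; eGFP from this locus also marks monocytes. The comparisons ask which transcripts change with injury, with its severity and with time.

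A semaphorin that binds a plexin changes the activity of the receptor's own cytoplasmic domain, which switches off small GTPases of the Ras and Rap type and, through bound regulators, alters the actin skeleton. Class A plexins mostly receive secreted class 3 semaphorins together with a neuropilin, or class 6 semaphorins directly. Plexin B1 is the high-affinity receptor of Sema4d, plexin B2 of Sema4c, plexin B3 of Sema5a, plexin C1 of Sema7a and plexin D1 of Sema3e. The family is best known from axon guidance, and several members also act in immune cells.

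All 9 plexins were detected in the sorted samples, each at or above 1 CPM in all 20 of them. CPM is the normalized count of the table, scaled to library size. The samples are bulk and also held markers of other cells, so the cell source of each transcript was not tested. *Plxnb2* was far above the others, with 434 ± 37.4 CPM in NI (SD, n = 3) and a mean over the 20 samples higher than that of 98.2% of the genes in the table. Per kilobase of exon model, the scale on which genes can be set side by side, the NI samples held 56.3 ± 4.84 CPM per kb of *Plxnb2*. *Plxna4* (3.51 ± 0.406), *Plxnb3* (3.19 ± 0.411) and *Plxna1* (2.96 ± 0.142) came next, neighbours in this order not differing beyond their spread, followed by *Plxnc1* (1.04 ± 0.134) and *Plxna3* (1.03 ± 0.101), which also lay within each other's spread. *Plxnb1* stood at 0.624 ± 0.127, *Plxnd1* at 0.392 ± 0.0391 and *Plxna2* at 0.172 ± 0.0519 CPM per kb. The lowest members rested on few reads: *Plxnb1* had 9 to 124 reads in a sample and *Plxnd1* 8 to 119, against 1298 to 13419 for *Plxnb2*.

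**Figure D1:**
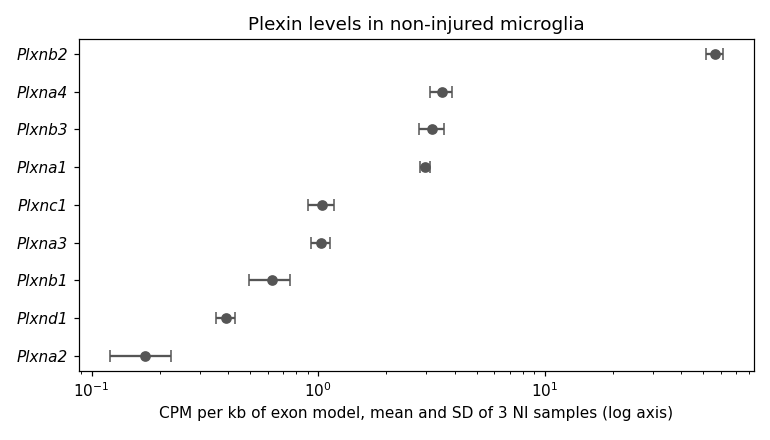
Levels of the 9 plexins in non-injured microglia, as CPM per kb of exon model on a log axis (points, mean of 3 samples; bars, SD). *Plxnb2*, at 56.3 CPM per kb, is set apart from the other 8, which lie between 0.172 and 3.51.

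The libraries held 3872918 to 34099232 reads on the genes of the table, and 1 read was worth 0.0330 to 0.292 CPM. The microglial markers *P2ry12* and *Tmem119* were present in every sample, at 3739 to 5085 and 1196 to 1263 CPM in NI and at 1182 to 3843 and 447 to 855 CPM after injury. The sum of the 8 listed microglial markers was 19340 to 27780 CPM in NI and 15750 to 32640 after injury. Single members of that list changed in both directions, with log2 fold changes of -1.22 to 1.51 at HS 72 h. Markers of other cells were present too, with none of the listed ones at 0 in all samples of a group. The sum of 7 monocyte markers was 65.1 to 72.3 CPM in NI, 156 to 246 at HS 72 h, 167 to 520 at FT 72 h and 57.5 to 130 at the later times, the highest value being that of FT 72 h replicate 1. The sum of 7 neuronal markers was 43.6 to 78.2 CPM in NI and 13.3 to 40.7 after injury.

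After injury *Plxnc1* rose and *Plxnb1* fell, and no other plexin passed both limits against NI (limma adjusted p under 0.05 and a change of at least 2-fold, called DE below). At HS 72 h 1 of the 9 plexins (11.1%) was DE, *Plxnb1*, where 13.4% of all genes were. At HS 1 week none was, with 2.18% of all genes DE and 3 plexins at an unadjusted p under 0.05. At HS 2 weeks both *Plxnb1* and *Plxnc1* were DE (22.2% of the plexins), against 3.23% of all genes. The same pair made up the DE plexins at each time after FT, where 12.2% (72 h), 4.05% (1 week) and 4.88% (2 weeks) of the table was DE. The HS 72 h share of the family was thus near that of the table, and a single plexin counts for 11.1%. The median log2 fold change of the 9 plexins ran from -0.34 at FT 72 h to 0.03 at HS 2 weeks, that of all genes from -0.11 to 0.02 over the 6 comparisons.

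**Figure D2:**
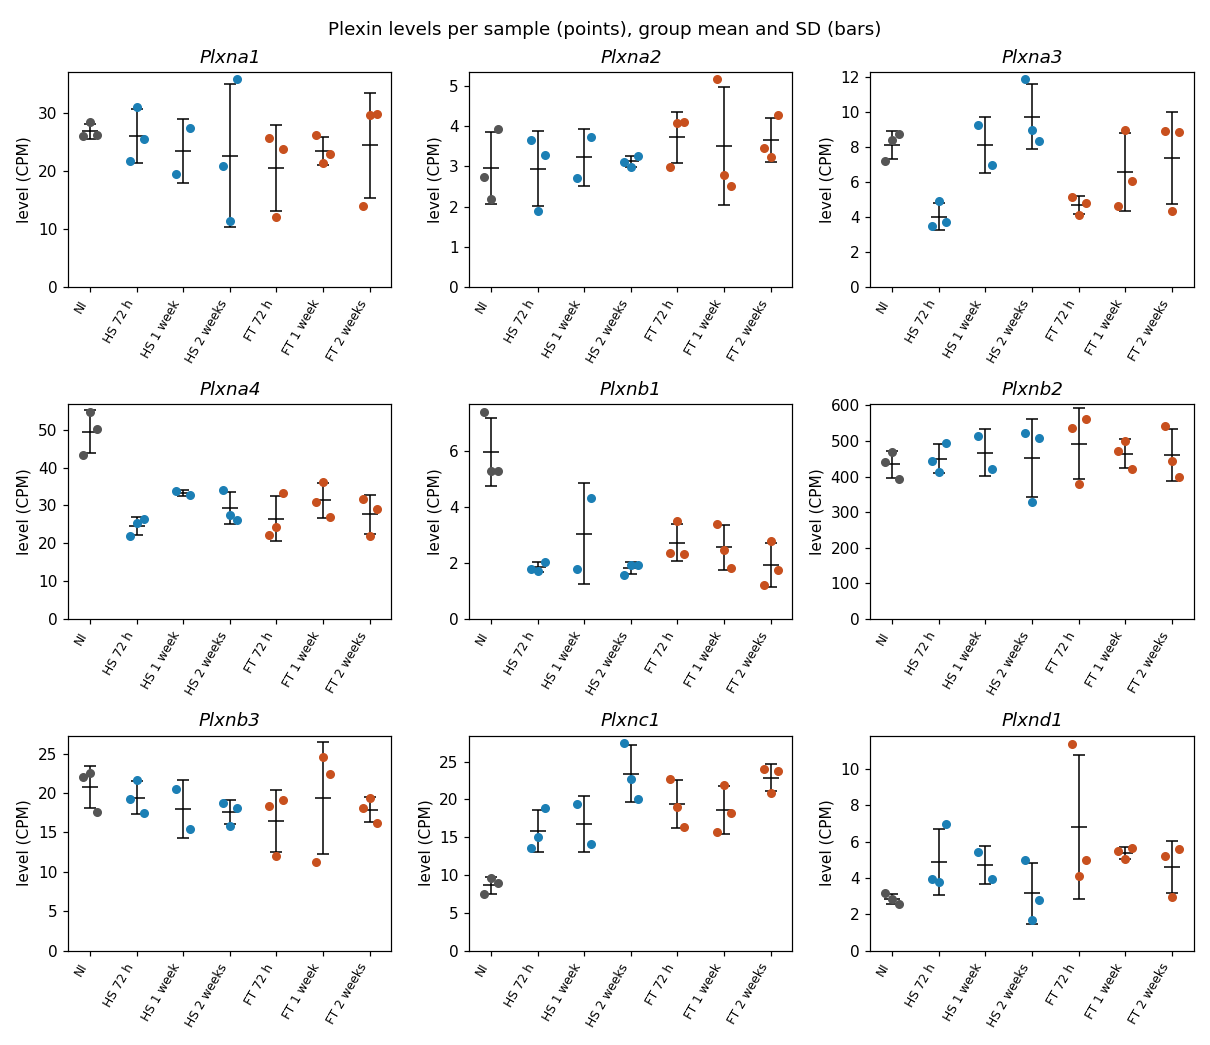
Level of each plexin in CPM (vertical axes, each from 0) in every sample by group (points, grey for NI, blue for HS, orange for FT), with the group mean and SD (bars). The injured samples of *Plxnc1* all lie above the 3 NI samples, those of *Plxna4* and *Plxnb1* all lie below them, and the *Plxnb2* samples overlap between NI and every injured group.

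*Plxnc1* encodes the single class C plexin, the receptor of the membrane-anchored Sema7a, known from leukocyte adhesion and migration. The gene lies on the minus strand of chromosome 10 (GRCm38, 94790866 to 94944835). Its level was 7.45, 9.65 and 8.92 CPM in the NI samples. It was 13.5, 14.98 and 18.9 CPM at HS 72 h, 19.3 and 14.1 at HS 1 week, while the HS 2-week samples held 27.4, 22.7 and 20.1. After FT the values were 22.7, 19.0 and 16.4 CPM at 72 h, 15.6, 21.9 and 18.1 at 1 week, while the 2-week samples held 24.1, 20.8 and 23.8. None of the 17 injured samples overlapped with NI. The share of all genes without such overlap was not counted, so here and for the plexins below it is a description only. The 2-week groups held the highest means, 23.4 ± 3.75 CPM (HS) and 22.9 ± 1.79 CPM (FT), or 2.70 and 2.64 times the NI mean. On the log2(CPM + 0.5) scale, which understates the change of low genes, *Plxnc1* rose by 1.38 at HS 2 weeks (SE 0.20, limma adjusted p = 0.000122), by 1.35 at FT 2 weeks (9.69e-05), by 1.11 at FT 72 h (0.000364) and by 1.05 at FT 1 week (0.00189). At HS 72 h the log2 fold change was 0.82 (95% interval 0.40 to 1.24, adjusted p = 0.0044) and at HS 1 week 0.90 (0.43 to 1.37, adjusted p = 0.0321), both under 2-fold. In bulk samples, fewer cells of a type and less RNA per cell cannot be told apart. The change of *Plxnc1* fell just under 2-fold at FT 72 h without FT 72 h replicate 1 (0.99) and at FT 1 week without NI replicate 1 (0.95) or FT 1 week replicate 2 (0.93). Scaling every column to the same total, which moved the all-gene median to -0.52 at HS 72 h and -0.48 at FT 72 h, left *Plxnc1* at 0.34 (adjusted p = 0.199) and 0.66 there. With that scaling it was also no longer DE at FT 1 week (0.72) or FT 2 weeks (0.97), so that of its 4 calls the one at HS 2 weeks (1.07) remained.

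Over the 20 samples the log2 level of *Plxnc1* correlated with that of the summed monocyte markers at r = 0.22. The sum was highest at 72 h and *Plxnc1* at 2 weeks. Of 8 monocyte markers listed, 7 were in the table. Their sum was 66.6 to 95.8 CPM at HS 2 weeks and 74.9 to 81.5 at FT 2 weeks, beside 65.1 to 72.3 in NI. At HS 72 h 4 of the 7 rose and at FT 72 h 6, where 9.08% and 8.14% of all genes rose. At each later time 1 rose after either injury, beside 1.7% to 3.53% of all genes. In each 2-week group 1 fell, beside 0.797% (HS) and 1.36% (FT) of all genes. The median log2 fold change of the 7 was 1.85, 1.33 and 1.202 at the 3 times after HS and 2.25, 0.09 and 0.28 after FT. The 2-week sums covered changes in both directions. *Ms4a4c* rose from 8.11 ± 2.06 CPM in NI (SD, n = 3) to means of 29.8 (HS) and 41.8 CPM (FT) at 2 weeks, with limma adjusted p = 0.000239 and 7.09e-06. *F13a1*, the gene of a coagulation factor subunit found in monocytes and macrophages, fell there from 36.3 ± 8.39 CPM to 11.3 and 7.25 CPM (adjusted p = 0.0203 and 0.000726). At FT 72 h the replicate with 520 CPM of monocyte markers also held the highest *Plxnc1* of its group. The same held at HS 1 week, while in the other injured groups the highest sum and the highest *Plxnc1* lay in different samples. After group means were subtracted, the monocyte marker *Ccr2* was among the 3 genes most like *Plxnc1* (r = 0.83). None of the other listed monocyte markers was. The part of these cells in the *Plxnc1* values was not tested. Border-associated macrophage markers were lower after injury (33.1 to 149.9 CPM in sum, NI 161 to 168).

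*Plxnb1* encodes the high-affinity receptor of Sema4d, which acts on RhoA through bound exchange factors. The gene lies on the plus strand of chromosome 9 (109095389 to 109119917). It stood at 7.39, 5.28 and 5.28 CPM in the NI samples. HS samples held 1.78, 1.70 and 2.05 CPM at 72 h, 1.77 and 4.33 at 1 week, while the 2-week samples held 1.56, 1.92 and 1.93. FT samples held 2.37, 3.51 and 2.32 CPM at 72 h, 3.41, 2.48 and 1.81 at 1 week, while the 2-week samples held 1.22, 2.79 and 1.76. All 17 injured samples were under the lowest NI sample. *Plxnb1* fell by 1.45 on the log2 scale at HS 72 h (SE 0.30, limma adjusted p = 0.00116), by 1.48 at HS 2 weeks (0.0041), by 1.01 at FT 72 h (0.019), by 1.10 at FT 1 week (0.0295) and by 1.46 at FT 2 weeks (0.00291). In CPM, the means were 30.8%, 30.2%, 45.7%, 42.9% and 32.1% of the NI mean. At HS 1 week, with 2 samples far apart, the log2 fold change was -0.95 (95% interval -1.66 to -0.25, adjusted p = 0.172). The FT 72 h and FT 1 week calls depended on single libraries, and the HS 72 h call stayed whichever sample was left out. *Plxnb1* was no longer DE at FT 72 h without NI replicate 1 (log2 fold change -0.86, adjusted p = 0.0813), FT 72 h replicate 1 (-0.93, 0.0642) or FT 72 h replicate 3 (-0.92, 0.0644). Nor was it DE at FT 1 week without any 1 of the 3 NI samples (0.0607 to 0.133) or without FT 1 week replicate 2 (0.0751) or 3 (0.175).

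Of the neural marker sums, those of neurons, oligodendrocytes and astrocytes correlated positively with *Plxnb1*, and that of oligodendrocyte precursors negatively. Over the 20 samples the log2 level of *Plxnb1* correlated with that of the summed neuronal markers at r = 0.66 and of oligodendrocyte markers at 0.61. With astrocyte markers r was 0.51, with border-associated macrophage markers 0.62 and with oligodendrocyte precursor markers -0.38. This is a description in which all points share the group structure. The 7 oligodendrocyte markers summed to 769 to 1756 CPM in NI and 185 to 991 after injury. The 6 oligodendrocyte precursor markers summed to 17.1 to 23.3 CPM in NI and 14.7 to 20.2 at HS 72 h. At 2 weeks their sum was 35.7 to 95.1 CPM after HS and 47.5 to 86.2 after FT. In each 2-week group 1 of the 6 rose and 0 fell, where 2.43% (HS) and 3.53% (FT) of all genes rose. The largest log2 fold changes of these markers were 3.64 and 3.84, while their medians were -0.75 and -0.61. The 8 astrocyte markers summed to 412 to 742 CPM in NI. They summed to 303 to 591 CPM at HS 72 h, 289 to 310 at HS 1 week, 164 to 318 at HS 2 weeks, 492 to 710 at FT 72 h, 303 to 453 at FT 1 week and 186 to 250 at FT 2 weeks. The part of these cells in the change of *Plxnb1* was not tested.

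**Figure D3:**
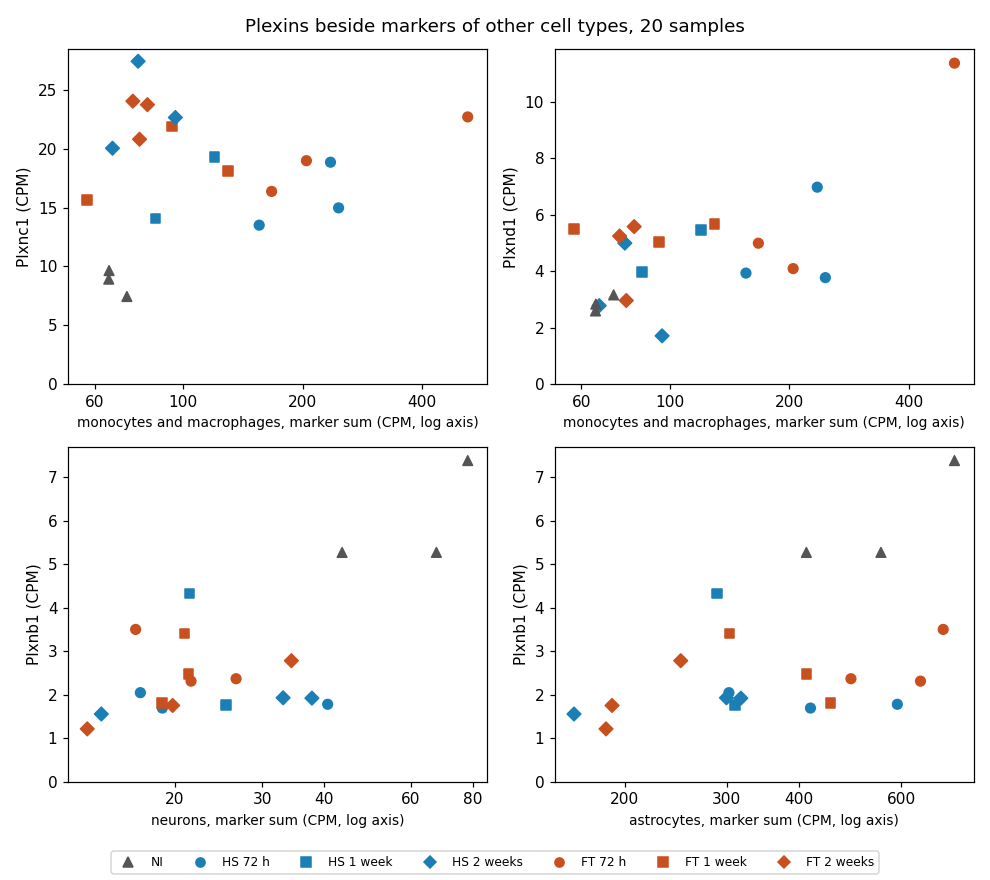
Level of *Plxnc1*, *Plxnd1* and *Plxnb1* (vertical axes, CPM) against the summed level of monocyte, neuronal or astrocyte markers (horizontal log axes, CPM) in the 20 samples (grey triangles, NI; blue, HS; orange, FT; circles, 72 h; squares, 1 week; diamonds, 2 weeks). The 17 injured samples lie above the 3 NI samples in *Plxnc1*, and the highest *Plxnd1* value, 11.4 CPM, belongs to the sample with the highest monocyte sum, 520 CPM.

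The promoters of these 2 genes, which moved in opposite directions, are shown for their base composition. Each sequence runs 5′ to 3′ along the gene from 250 bases before to 50 after the RefSeq start (GRCm38.p6), at chr10:94944796-94945095 (minus strand) for *Plxnc1* and chr9:109095186-109095485 (plus strand) for *Plxnb1*. Capitals mark the GC box bound by Sp and Klf factors, GGGCGG, or its reverse complement CCGCCC.
Plxnc1: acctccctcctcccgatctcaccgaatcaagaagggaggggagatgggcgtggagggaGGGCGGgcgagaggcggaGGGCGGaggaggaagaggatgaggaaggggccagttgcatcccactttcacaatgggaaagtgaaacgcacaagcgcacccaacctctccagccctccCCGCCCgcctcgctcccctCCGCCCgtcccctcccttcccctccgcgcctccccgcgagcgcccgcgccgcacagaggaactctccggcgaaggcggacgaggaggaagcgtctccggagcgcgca
Plxnb1: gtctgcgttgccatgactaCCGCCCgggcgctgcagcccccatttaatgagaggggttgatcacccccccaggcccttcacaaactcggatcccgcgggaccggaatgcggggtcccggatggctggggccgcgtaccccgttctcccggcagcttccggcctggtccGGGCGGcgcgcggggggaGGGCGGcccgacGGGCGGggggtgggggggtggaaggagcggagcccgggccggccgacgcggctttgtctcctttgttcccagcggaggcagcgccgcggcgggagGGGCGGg
Both are rich in G and C: 69% for *Plxnc1* and 74.7% for *Plxnb1*, above 88.9% and 95.8% of the 32851 promoters in the set, whose median was 52.7%. *Plxnc1* held 30 CpG dinucleotides and *Plxnb1* 36, against a median of 7. GC boxes, 4 and 5 in number, also occurred in 35.7% of all promoters. The letters TGACTCA (AP-1, 5.2% of all promoters), GAGGAAGT (PU.1, 3.2%) and CACGTG (the E-box of MiT/TFE factors, 7.15%), searched on both strands, were in neither window. Promoters of 7 of the 9 plexins were in the set, and *Plxna1* and *Plxna4* were not.

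*Plxna4*, a receptor of Sema3a (with neuropilin 1) and of class 6 semaphorins, was lower after injury by less than 2-fold. NI samples held 43.4, 54.8 and 50.2 CPM. HS samples held 21.8, 25.4 and 26.5 CPM at 72 h, 33.8 and 32.7 at 1 week, while the 2-week samples held 34.2, 27.6 and 26.2. FT samples held 22.1, 24.2 and 33.2 CPM at 72 h, 30.8, 36.3 and 27.1 at 1 week, while the 2-week samples held 31.8, 21.9 and 29.2. As with *Plxnb1*, every injured sample was under every NI sample. The log2 fold change was -0.99 at HS 72 h (SE 0.19, limma adjusted p = 0.000562), -0.75 at HS 2 weeks (0.023), -0.90 at FT 72 h (0.00151), -0.65 at FT 1 week (0.0424) and -0.84 at FT 2 weeks (0.00637), and -0.56 at HS 1 week (0.22). At HS 72 h the value sat at the 2-fold limit and passed it with edgeR (-1.01, adjusted p = 0.000483) or without NI replicate 1 (-1.08), HS 72 h replicate 2 (-1.02) or HS 72 h replicate 3 (-1.05). At FT 72 h it passed without FT 72 h replicate 3 (-1.07). The antisense genes *Plxna4os1*, *Plxna4os2* and *Plxna4os3* overlap this gene on chromosome 6 (32144268 to 32588192), as *Gm7628* overlaps *Plxnb1* and *Gm26811* *Plxna1*. Strand use in counting is not given in the sources used here, so reads of such pairs cannot be told apart.

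*Plxna3*, a partner of neuropilin 2 in Sema3f reception, was low at 72 h and rose by 2 weeks after HS. NI samples held 7.21, 8.37 and 8.73 CPM, and the 72 h samples 3.47, 4.90 and 3.69 (HS) and 5.12, 4.09 and 4.81 (FT), all under NI. At 1 week the values were 9.26 and 6.98 (HS) and 4.60, 8.98 and 6.07 CPM (FT), and at 2 weeks 11.9, 8.98 and 8.33 (HS) and 8.89, 4.35 and 8.86 CPM (FT). Both HS groups after 72 h lay above all HS 72 h samples, while the later FT groups overlapped with FT 72 h. From 72 h to 2 weeks after HS *Plxna3* rose by 1.18 on the log2 scale (SE 0.27, limma adjusted p = 0.00771). It was the only plexin DE between times in these comparisons, where 4.74% of all genes were. Against NI, its log2 fold change was -0.94 at HS 72 h (adjusted p = 0.0142, under 2-fold) and -0.74 at FT 72 h (0.0544). The first of these passed 2-fold without NI replicate 1 (-1.01) or HS 72 h replicate 2 (-1.07) and with edgeR (-1.01).

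*Plxnd1*, the receptor that binds Sema3e without a neuropilin, is best known from blood vessels. NI samples held 3.16, 2.83 and 2.59 CPM. HS samples held 3.93, 3.77 and 6.97 CPM at 72 h, 5.45 and 3.97 at 1 week, while the 2-week samples held 4.99, 1.71 and 2.78. FT samples held 11.4, 4.09 and 4.99 CPM at 72 h, 5.48, 5.03 and 5.68 at 1 week, while the 2-week samples held 5.24, 2.96 and 5.58. Both groups of 72 h and both of 1 week lay above NI, and those of 2 weeks overlapped with it. The log2 fold change was 1.00 at FT 72 h (95% interval 0.26 to 1.73, limma adjusted p = 0.0443), just short of 2-fold, and 0.64, 0.62 and 0.03 at HS 72 h, 1 week and 2 weeks (adjusted p = 0.186, 0.583 and 0.985). It was 0.81 at FT 1 week (0.209) and 0.56 at FT 2 weeks (0.435). Against the limma result, edgeR (1.28, adjusted p = 0.0191) and DESeq2 (1.28, 0.00609) placed FT 72 h past the limit. Leaving out FT 72 h replicate 2 (1.27) or 3 (1.14) did so too. Without FT 72 h replicate 1, the sample of 11.4 CPM, *Plxnd1* did not pass. With every column scaled to the same total its FT 72 h change was 0.58 (limma adjusted p = 0.209). The highest value, in FT 72 h replicate 1, came with the highest monocyte sum (520 CPM), and over the 20 samples the correlation of *Plxnd1* with that sum was 0.57. Its part in the result was not tested.

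**Figure D4:**
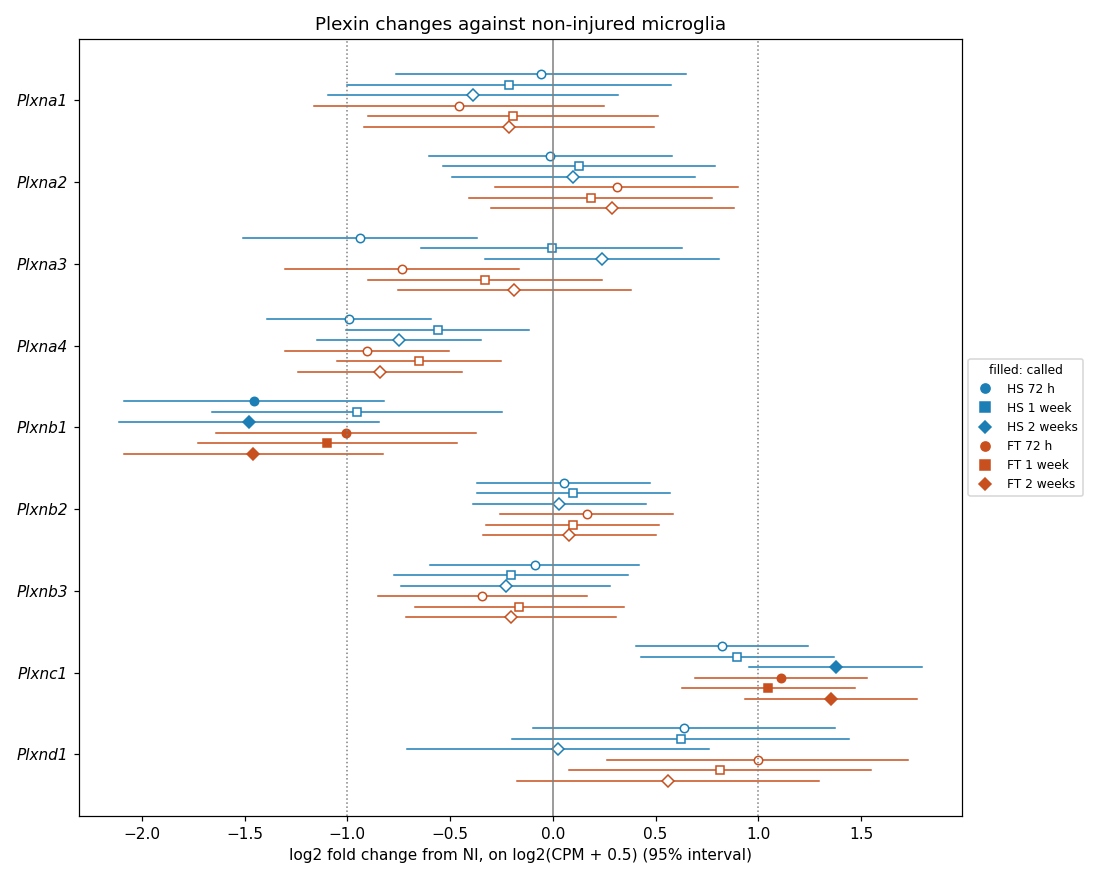
Log2 fold change from NI with its 95% interval (horizontal axis, on log2(CPM + 0.5)) for the 9 plexins in the 6 injured groups (blue, HS; orange, FT; circles, 72 h; squares, 1 week; diamonds, 2 weeks; filled, DE; dotted lines, 2-fold). The filled points belong to *Plxnb1*, DE in 5 comparisons, and *Plxnc1*, DE in 4.

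The 4 remaining plexins passed no limit against NI. *Plxnb2*, a receptor of Sema4c, ranged from 327 to 563 CPM over the 20 samples, and its log2 fold changes lay between 0.03 and 0.16 (95% intervals within -0.39 to 0.58, smallest limma adjusted p = 0.589). Its intervals were the narrowest of these 4 and held no 2-fold change. *Plxna1*, which pairs with Trem2 and Tyrobp in myeloid cells, had log2 fold changes from -0.46 to -0.06 and wider intervals (-1.16 to 0.65), since single samples of HS 2 weeks (11.3 CPM), FT 72 h (11.98) and FT 2 weeks (13.9) were far under the others of their groups. Its FT 72 h samples all lay under NI. *Plxnb3*, the Sema5a receptor, ranged from 11.2 to 24.5 CPM, with log2 fold changes of -0.34 to -0.09 (intervals within -0.85 to 0.42). *Plxna2*, a class A member that binds Sema6a, ranged from 1.89 to 5.19 CPM, with log2 fold changes of -0.01 to 0.31 (intervals within -0.61 to 0.90).

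Lesion severity gave no plexin difference that passed the test. FT against HS left 0 plexins and 0% of the table DE by limma in each of the 4 contrasts. At an unadjusted p under 0.05 there were 0 plexins, and 505 genes in the 72 h contrast, 724 in that of 1 week, 438 in that of 2 weeks and 751 in the average of the times. edgeR and DESeq2 also called 0 plexins. The 27 differences at single times ran from -0.43 (*Plxna3* at 2 weeks) to 0.53 (*Plxnd1* at 2 weeks) on the log2 scale. Some of their 95% intervals reached past 2-fold, among them those of *Plxnd1* at 2 weeks (-0.20 to 1.27) and *Plxna1* at 72 h (-1.10 to 0.31). Averaged over the times, the largest was 0.36 for *Plxnd1* (unadjusted p = 0.103), and all 9 intervals lay within -0.52 to 0.80, so that 2-fold differences of the average fell outside them. For *Plxnb1* and *Plxnc1*, the FT minus HS differences at 2 weeks were 0.02 (95% interval -0.61 to 0.65) and -0.02 (-0.44 to 0.40).

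Apart from *Plxna3*, the times did not differ at the limits used. No plexin was DE by limma between 1 week and 72 h after HS (6.03% of all genes DE, 1 plexin at an unadjusted p under 0.05) or between 2 weeks and 1 week after HS (0.0119% of all genes, 1 plexin). After FT none was DE or reached an unadjusted p under 0.05, for 1 week against 72 h (3.44% of all genes), 2 weeks against 72 h (3.81%) or 2 weeks against 1 week (0.0714%). *Plxnc1* stood 0.55 higher on the log2 scale at HS 2 weeks than at HS 72 h (95% interval 0.13 to 0.97, adjusted p = 0.0848), and *Plxna3* 0.93 higher at HS 1 week than at HS 72 h (adjusted p = 0.0572).

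Among the ligands, all 20 semaphorins looked for were in the table, none rose in any injured group, and 5, 2 and 2 fell at HS 72 h, 1 week and 2 weeks and 3, 2 and 2 at the same times after FT. Of all genes, 4.31%, 0.482% and 0.797% fell at those times after HS and 4.09%, 1.2% and 1.36% after FT. For the list, 1 of 20 is 5%. This list and those that follow were chosen with earlier results of these data known, so the shares are a description only. *Sema6d* and *Sema4b* fell in all 6 comparisons. *Sema6d*, a ligand of plexin A1, went from 10.1 ± 1.14 CPM in NI (SD, n = 3) to group means of 3.03 to 4.01 CPM, with log2 fold changes of -1.61 (HS 72 h, limma adjusted p = 0.000986) to -1.28 (FT 1 week, 0.0185). *Sema4b* stood at 8.74 ± 0.63 CPM in NI and its log2 fold changes ran from -1.73 (FT 2 weeks, adjusted p = 0.000255) to -1.31 (FT 1 week, 0.00466). *Sema4g* fell at 72 h after both injuries (-1.21 and -1.45) and stood at -0.03 to -0.34 from NI later. *Sema6a* (-1.10) and *Sema5b* (-1.003) fell at HS 72 h, *Sema5b* from levels near 1 CPM. The most abundant ligand in CPM was *Sema4d*, the plexin B1 ligand, with a mean of 379 CPM over the 20 samples and log2 fold changes of 0.17 to 0.70 that did not pass the test (adjusted p = 0.101 at the lowest). *Sema4c* had the third highest mean, 11.4 CPM, after *Sema4g* at 21.8 CPM.

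The list of 14 co-receptors and receptor partners also held *Cd72*, a separate receptor of Sema4d. In this list 3, 2 and 2 genes rose at the 3 times after HS and 3, 4 and 4 after FT. In each of HS 2 weeks, FT 1 week and FT 2 weeks 1 fell. Among all genes 9.08%, 1.7% and 2.43% rose at the 3 times after HS and 8.14%, 2.86% and 3.53% after FT. As with the ligands, the list was chosen with earlier results known, so the shares are a description only. *Nrp1*, the neuropilin that class A plexins need for Sema3a, rose in all 6 groups, by 1.02 (HS 2 weeks, limma adjusted p = 0.000798) to 1.31 (FT 1 week, 4.47e-05) on the log2 scale. *Cd72*, a lymphocyte and myeloid receptor that also binds Sema4d, had the largest changes of the list, with log2 fold changes of 2.34 (FT 1 week, adjusted p = 3.24e-05) to 3.27 (FT 2 weeks, 2.35e-07). *Nrp2* rose at FT 1 week (1.03) and FT 2 weeks (1.09), and *Tyrobp*, the adaptor of Trem2, in 4 groups (1.07 to 1.16). *Trem2* itself had log2 fold changes of 0.09 to 0.72 and passed in none (smallest adjusted p = 0.0567). *Nrcam*, a neuronal adhesion protein, fell at HS 2 weeks (-1.07), FT 1 week (-1.22) and FT 2 weeks (-1.46).

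Of 18 small GTPases and regulators, 16 were in the table. *Rhoa* (1.00, limma adjusted p = 0.0203) and *Gipc1* (1.04, 0.00208), an adaptor that binds plexins and neuropilins, rose at HS 72 h, and *Rnd1*, which binds the cytoplasmic part of plexins, fell at HS 72 h (-1.32, 0.0349) and FT 72 h (-1.54, 0.0166). The list thus held 3 DE genes at HS 72 h and 1 at FT 72 h, where 13.4% and 12.2% of all genes were DE, and 0 by limma at the later times, where 2.18% to 4.88% were, a share under that of 1 gene in 16. *Rac1* and *Rap1b*, with *Rhoa* the most abundant of the list in CPM, had log2 fold changes of -0.02 to 0.43 and -0.08 to 0.40. Among 17 kinases, CRMPs and cytoskeletal effectors, *Cfl1* (cofilin, which severs actin filaments) rose at HS 72 h (1.86, adjusted p = 2.21e-07) and FT 72 h (1.78, 4.25e-07). *Mical1*, an enzyme that oxidizes actin downstream of plexins, rose at 72 h and 2 weeks after both injuries (1.21 to 1.28), and *Mical3* fell at 72 h after both (-1.33 and -1.25). *Dpysl2*, the microtubule-binding CRMP2, rose at HS 72 h (1.04, 0.00348), and the kinase gene *Fes* had log2 fold changes of -0.30 to -0.11. The list medians stayed within -0.55 (semaphorins, HS 72 h) and 0.41 (partners, HS 1 week), beside all-gene medians of -0.11 and 0.02 in those comparisons.

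**Figure D5:**
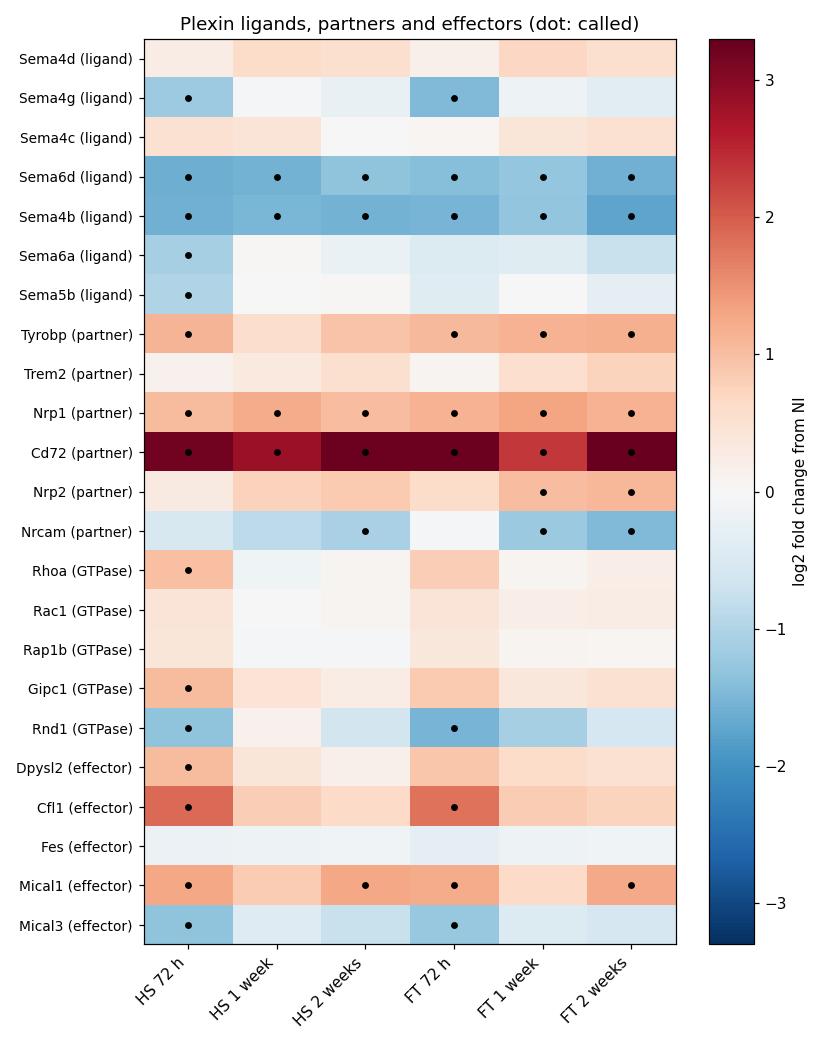
Log2 fold change from NI (color) in the 6 injured groups (columns) for the named genes of the lists (rows). These are ligands, partners (the list that also held *Cd72*), GTPase genes and effectors. Dots mark DE genes. *Sema6d* and *Sema4b* are lower and *Nrp1* and *Cd72* higher in all 6 columns, while *Cfl1* and *Rnd1* are DE in the 72 h columns.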

How the data were processed

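Microglial RNA was sequenced from 20 samples in 7 groups (SMARTer and Nextera libraries). The deposited table holds 1 normalized count in CPM for each of 16810 genes and sample, a signal that the authors made with TopHat2 2.0.9, HTSeq 0.5.4p3 and edgeR 3.3.6 on mm10 (GRCm38), per the submitters' processing notes. Column totals differ between samples, so values follow the authors' scaling factors. The totals were lowest in NI, at 777426 to 830481 CPM, against 878070 to 1.20219e+06 CPM in the injured samples. Scaling thus goes with injury, and results with equal totals are given as an alternative. Whole reads were recovered for 100% of values (within 0.001 of a read).

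Values were tested as log2(CPM + 0.5) with limma 3.58.1 (intensity trend, 7 group means, all 20 samples), with Benjamini-Hochberg adjustment over all genes in each comparison. DE required an adjusted p under 0.05 and a 2-fold change. edgeR 4.0.16 and DESeq2 1.42.0 (R 4.3.3) on recovered reads were alternatives, as were other added values, scalings and left-out samples. The methods call replicates biological, and p-values measure the spread between these samples. More mice than libraries are listed there for NI, HS and FT, without the number of mice in each library, so n counts libraries. HS 1 week held fewer samples than the methods state. No 2 of the 19 replicate pairs were identical, and each differed beyond sampling noise (chi-square per gene 10.7 or more). The limma fit held no replicate block, so all groups were tested as unpaired. Deviations from the group means correlated in all 3 same-numbered pairs of HS 72 h with FT 72 h (r = 0.143 to 0.267). A fit with a replicate block was added for these groups, and a block over all groups was an alternative. Both same-numbered pairs of HS 1 week also correlated with HS 72 h (0.151 and 0.251) and with HS 2 weeks (0.102 and 0.182). Exon lengths came from GENCODE. The script was tested on simulated data.

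All plexins are named. From the lists, members DE against NI at least once and the 3 with the highest means are named; for likeness, the 3 genes with the highest correlation, 1 of which is not reported here. Members and lists were chosen with earlier results of these data known. Cell fractions and protein were not analysed here.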

Additional observations from a re-analysis of the deposited data

How the results depend on the processing

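The counts of DE plexins depended mainly on values near the 2-fold limit. At HS 72 h (1 plexin) the count was 3 with 0.1 CPM added, 2 with quantile normalization, 3 with columns scaled to 1 total, 3 with either edgeR test (quasi-likelihood or likelihood ratio) and 4 with no fold limit. Of all genes 2250 were DE at HS 72 h, and 2554, 1915 and 3820 with the first 3 of these settings. The edgeR tests gave 2843 and 3127 genes, and 27.3% of all genes passed with no fold limit. At HS 1 week (0) the plexin count was 1 with no fold limit, where 2.68% of all genes passed. At FT 72 h (2) it was 1 with 1 CPM added, 3 with 0.1 CPM added, quantile normalization, columns scaled to 1 total, either edgeR test or DESeq2, and 4 with no fold limit. The members differed: quantile normalization dropped *Plxnb1* (-0.94) and added *Plxna4* and *Plxnd1*. Column scaling dropped *Plxnc1* and added *Plxna3* and *Plxna4*. Of all genes 2057 were DE at FT 72 h, 1719 with 1 CPM added, 1787 with quantile normalization and 3364 with column scaling. With no fold limit 24.2% passed. At FT 1 week (2) the plexin count was 1 with 1 CPM added, 1 with the samples of the compared groups alone, 1 with columns scaled to 1 total and 3 with no fold limit. Of all genes 681 were DE at FT 1 week, and 632, 595 and 906 with the first 3 of these settings. With no fold limit 7.03% passed. At HS 2 weeks (2) the plexin count was 3 with columns scaled to 1 total (680 of all genes DE, 543 in the main fit) and with no fold limit (4.99% of all genes). At FT 2 weeks (2) it was 3 with quantile normalization (745 of all genes, 821 in the main fit) and with no fold limit (8.17%). Between 1 week and 72 h after HS (0) it was 1 with columns scaled to 1 total and with either edgeR test, in each case *Plxna3*. The cause was not tested. Leaving out single samples gave 1 to 3 at HS 72 h, 0 to 3 at FT 72 h (0 without FT 72 h replicate 1) and 0 to 2 at FT 1 week (0 without NI replicate 1 or FT 1 week replicate 2), and moved no other count. Groups left with 1 sample are assumed to vary like the others.

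With columns scaled to 1 total, *Plxna4* passed 2-fold at HS 72 h (-1.497), HS 2 weeks (-1.07), FT 72 h (-1.37) and FT 2 weeks (-1.24), and *Plxnc1* did not at FT 1 week (0.72) or FT 2 weeks (0.97). Of 2664 recomputed log2 fold changes of the plexins, 2606 stayed on the same side of the limits (188 of them, none DE, changed sign), 40 newly passed, 18 no longer passed and none of those with an adjusted p under 0.05 reversed. Same-numbered samples deviated together at r over 0.1 in 20 of 57 pairs (median r = -0.002). Among the groups compared, every pair did so in HS 72 h with FT 72 h, HS 72 h with HS 1 week and HS 1 week with HS 2 weeks. For HS 72 h and FT 72 h, a fit of their samples alone with the replicate block was chosen after seeing the data. It left 0 plexins and 0 genes DE by limma between FT and HS (0 plexins and 782 genes at an unadjusted p under 0.05). With the replicate block over all groups, the counts of DE plexins stayed at 1, 0 and 2 for the 3 HS groups and at 2 for each FT group, and *Plxnc1* at HS 1 week had an adjusted p of 0.0623. Depth limits *Plxnb1* and *Plxnd1*, with 9 and 8 reads in their lowest samples.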

Other observations

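The genes whose levels were most like those of the changed plexins over the 20 samples, out of 14050 searched, are given as a description. For *Plxnc1* they were *Myo5a* (a myosin motor, Pearson's r = 0.956), *Cybb* (the catalytic subunit of the phagocyte NADPH oxidase, 0.955) and *Bcar3* (an adaptor of integrin signaling, 0.95), all 3 of them DE and higher in all 6 injured groups. After group means were subtracted, the 3 most like *Plxnc1* were *Trps1* (0.86), the monocyte marker *Ccr2* (0.83) and *Ero1lb* (0.82). For *Plxnb1* the most like genes were *Scg3* (a secretory granule protein of neuroendocrine cells, 0.89), the semaphorin gene *Sema6d* (0.87) and *Slc6a11* (a GABA transporter of astrocytes, 0.84). Within groups *Pcdh10* (0.86) and the oligodendrocyte lineage gene *Olig1* (0.82) came first. The 20 points share libraries and groups, and no test was made.

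Among the plexins themselves, *Plxnb1* and *Plxnc1* ran opposite to each other over the 20 samples (r = -0.81), as did *Plxna2* and *Plxnb3* (-0.77), neither of which was DE against NI.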
